A study of Mus musculus with 7 samples.

Results

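Crosslink sites of DENR that fall inside annotated genes of spliceosomal small nuclear RNAs (snRNAs) are described here. They come from individual-nucleotide resolution crosslinking and immunoprecipitation (iCLIP) of NIH3T3 cells, a mouse fibroblast line. DENR overexpressing cells (n = 3) had been transiently transfected with Denr in a FLAG-Venus vector and non-transfected cells (n = 2) provided the endogenous protein, and in both the immunoprecipitating antibody was directed at DENR. An IgG immunoprecipitation served as IP control (n = 2), and neither the labels nor the methods say whether its cells were transfected. Every library came from cells irradiated with UV-C, 1 dish was used for overexpression against more dishes for non-transfected cells, and the excised protein-RNA band was sized for a complex larger than DENR alone. A site was counted when it lay on the strand of a gene that GENCODE M21 (mouse build mm10) types as snRNA, outside the mitochondrial chromosome. This rule found 1018 of the 42120 listed sites, at 765 distinct positions in 72 of 1383 annotated snRNA genes.

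Each spliceosomal snRNA is the core of a ribonucleoprotein particle. U1 pairs with the 5′ splice site, U2 with the branch point, U5 holds the exons at the catalytic centre, and U6 carries the ACAGAGA box that replaces U1 at the 5′ splice site. U12 takes the place of U2 on the minor class of introns. A ring of Sm proteins closes around a U-rich stretch flanked by A and G in U1, U2, U5 and U12, whereas U6 has no such site and carries LSm proteins on its 3′ U tail. The mouse genome holds a few functional genes of each kind and many near-identical copies, which matters for every value given per copy. DENR itself is known as a translation reinitiation factor that works with MCTS1 on the small ribosomal subunit.

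The following sequences were read from the GENCODE M21 transcripts (mm10) and are written 5′ to 3′ with T for U. They show where sites recurred in the 2 genes listed in all 5 DENR libraries. Capitals mark nucleotides listed in at least 2 libraries. Rnu12 is the U12 gene at chr15:83149644-83149794 on the plus strand, and Gm26316 is a U2 gene at chr11:101604850-101605040 on the plus strand.
Rnu12: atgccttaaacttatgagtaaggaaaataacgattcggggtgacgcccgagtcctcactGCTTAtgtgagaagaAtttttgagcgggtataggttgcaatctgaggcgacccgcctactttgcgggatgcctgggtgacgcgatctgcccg
Gm26316: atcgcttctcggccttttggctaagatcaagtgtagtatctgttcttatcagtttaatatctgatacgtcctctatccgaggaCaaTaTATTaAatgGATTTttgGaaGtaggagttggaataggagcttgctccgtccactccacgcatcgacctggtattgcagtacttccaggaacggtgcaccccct

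All 5 DENR libraries listed sites in snRNA genes and neither IgG library did. The DENR overexpressing libraries held 15, 718 and 160 snRNA sites, and the non-transfected libraries held 50 and 75. As shares of the listed sites these were 0.374%, 4.45% and 1.57% in DENR overexpressing 1, 2 and 3, and 1.16% and 1.04% in non-transfected 1 and 2. DENR overexpressing 2 stood far above the rest, with an exact 95% interval of 4.14% to 4.78%, and DENR overexpressing 1 was lowest, with 0.209% to 0.616%. Of all snRNA sites, 70.5% came from DENR overexpressing 2. Its list lacks the header that gives the calling option in the other lists, and the part of this in its share was not tested.

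The IgG lists were short, at 19 and 234 sites, so that 0 sites allow a share of up to 15.8% and 1.28%. The exact 95% intervals reach further, to 17.6% and 1.56%. The shares of DENR overexpressing 1 and both non-transfected libraries lie under the limit of the larger list by either measure. A difference from IgG was therefore not detectable at this depth for these libraries taken singly. The share of DENR overexpressing 3 (1.567%) lies above 1.28% but at the exact bound (1.564%), so that it is borderline. The mean share over the DENR libraries was 1.72% ± 1.59 (SD, n = 5) against 0% in both IgG libraries, and a two-sided exact permutation test gave p = 0.0952, the smallest that 5 against 2 libraries allow (adjusted p = 0.381 over 4 tests).

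**Figure D1:**
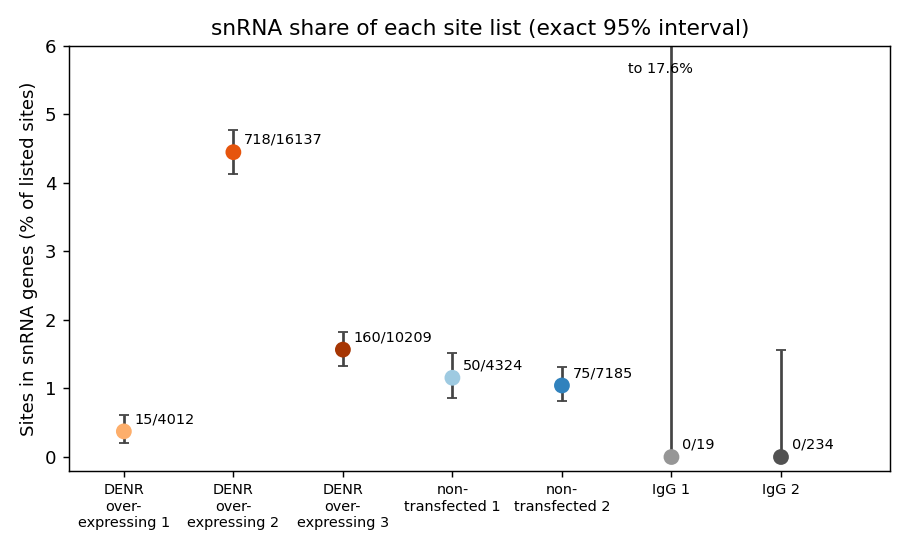
Share of each library's listed crosslink sites that lay in snRNA genes, in percent on the vertical axis, for the 7 libraries. Points are single libraries with their exact 95% interval, which covers counting error only, and the fractions give snRNA sites over listed sites. DENR overexpressing 2 sits at 4.45% and the other DENR libraries between 0.374% and 1.57%, while the interval of IgG 1 runs off the axis.

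The overexpressing and non-transfected libraries overlapped in their snRNA share. It was 2.13% ± 2.10 (SD, n = 3) in the overexpressing libraries and 1.10% ± 0.0795 (SD, n = 2) in the non-transfected ones. The difference of 1.03 percentage points had p = 0.8 in a two-sided exact permutation test, in which 3 against 2 libraries cannot go below 0.2. Without DENR overexpressing 2 the difference turned to -0.130 percentage points, and after sites within 15 nt were merged into 1 it was -0.253. Genes typed as snoRNA or scaRNA, whose products guide chemical modification of other RNAs, were counted together in the same lists. They took 0.0997%, 0.335% and 0.470% of the overexpressing lists and 0.0694% and 0.710% of the non-transfected lists.

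The rule kept sites on the sense strand of an snRNA gene. On the antisense strand of the same genes 0 sites were listed in any library, which is given as a description with no test. Scores, which are the heights the authors' caller gave to sites and are not scaled to library size, were low. The highest snRNA score was 5, 52 and 14 in the overexpressing libraries and 6 and 8 in the non-transfected ones. A score of 1 was held by 66.7%, 38.0% and 51.9% of snRNA sites in DENR overexpressing 1 to 3 and by 56% and 52% in the non-transfected libraries, which in each library is above its own share over all listed sites (42.1%, 35.7%, 31.0%, 43.8% and 34.5%).

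The gene symbols alone name few snRNAs: 11 of the annotated genes carry a class in their symbol and only Rnu12 and Rnu5g of these held a site. The remaining genes were placed in the class of their best sequence match to a named gene, and 203 genes (14.7%) matched none and held no site. No U4, U4atac or U6atac gene is named in the annotation, so these RNAs had no class here. By sequence, U6 held 747 sites in 53 of 872 genes, U2 held 173 in 10 of 51, U5 held 53 in 6 of 11, U12 held 30 in 2 of 6 and U1 held 15 in 1 of 189. Genes matching U11 (5) and U7 (46, a histone pre-mRNA processing RNA) held none. U6 thus led by number of sites with 73.4% of them, but per kilobase of annotated sequence the order was different. Pooled over libraries, U5 genes had 32.9 distinct positions per kilobase, U2 genes 14.4, U12 genes 13.3, U6 genes 6.34 and U1 genes 0.404. Without DENR overexpressing 2 these were 12.5, 4.78, 7.73, 1.75 and 0.371, so that U12 came before U2, and U5 had 0 sites in DENR overexpressing 1 and non-transfected 1. The classes differ in how alike their copies are, and the part of this in the class values was not tested.

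The makeup varied strongly between libraries. U6 copies took 20%, 76.7% and 74.4% of the snRNA sites in DENR overexpressing 1 to 3, and 88% and 40% in non-transfected 1 and 2. U2 took 46.7%, 16.2%, 16.3%, 8% and 26.7% in the same order. U12 took 33.3%, 1.39%, 3.75%, 4% and 9.33%, so that DENR overexpressing 1, whose list held 15 snRNA sites, was made up mainly of U2 and U12. U5 was listed in 3 libraries, with 37, 5 and 11 sites in DENR overexpressing 2, DENR overexpressing 3 and non-transfected 2. Rnu5g was the class named by symbol with the most distinct positions, 12 against 9 for Rnu12. The difference of its share of snRNA sites, overexpressing minus non-transfected, was -4.16 percentage points (two-sided exact permutation test, p = 0.8), and all 7 of its sites outside DENR overexpressing 2 lay in non-transfected 2.

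Recurrence singled out a U2 gene and the U12 gene. Of the 72 genes, 2 had sites in all 5 DENR libraries, 5 in 4 libraries, 13 in 3, 19 in 2 and 33 in 1. All 72 had a site in DENR overexpressing 2, and the 33 single-library genes were seen there alone, so that without this library 39 genes and 300 sites remained. Gm26316 (U2) held 3, 24 and 9 sites in the overexpressing libraries and 4 and 13 in the non-transfected ones, with summed scores of 7, 123, 20, 5 and 23. Rnu12 held 5, 7, 6, 2 and 7 sites with summed scores of 10, 50, 25, 8 and 18. The number of sites in Rnu12 thus ranged from 2 to 7 over its 9 distinct positions, and its summed score from 8 to 50. The whole snRNA list ranged from 15 to 718 sites, but also from 4 to 72 genes. The range of a single gene cannot be set directly against it.

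Among U6 copies, 5 were seen in every DENR library but DENR overexpressing 1. Gm26378 held 30, 9, 4 and 1 sites in DENR overexpressing 2, DENR overexpressing 3, non-transfected 1 and non-transfected 2, and Gm26454 held 20, 6, 1 and 4. Gm23731 held 16, 6, 6 and 5 sites, Gm23144 held 14, 6, 6 and 2, and Gm22628 held 11, 7, 3 and 8. DENR overexpressing 2 held the most sites in each of these copies, as in the whole list. The highest summed score of any gene, 298, belonged to Gm22307, with 33 sites in DENR overexpressing 2, 12 in DENR overexpressing 3 and 1 in non-transfected 1.

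The 13 genes listed in 3 libraries were 9 other U6 copies and Gm22307 (Gm22063, Gm25245, Gm25312, Gm22306, Gm25698, Gm26285, Gm22638, Gm23264 and Gm23924), the U2 genes Gm25360 and Gm25939, and the U1 gene Gm22513. They held between 4 (Gm23924) and 46 (Gm22307) sites. Of those in 2 libraries, the 10 with the most distinct positions were Gm25412, Gm23095, Gm22129, Gm24522, Gm23140 and Gm22633 of class U6, Gm24497 and Gm24763 of U2, and Rnu5g and Gm24871 of U5. Of the 72 genes, 60 lay between genes, 10 in introns and 2 in exons of another gene on the same strand. The 2 in exons were Gm23410 in Med23 and Gm24871 in B930036N10Rik, where 24 sites could belong to either. Sites of the 10 genes in introns could likewise come from the unspliced RNA of the host, which was not tested. Of these 10, Gm22063 in Cbfb (38 sites) and Gm25245 in Atp5o (33 sites) held the most sites.

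**Figure D2:**
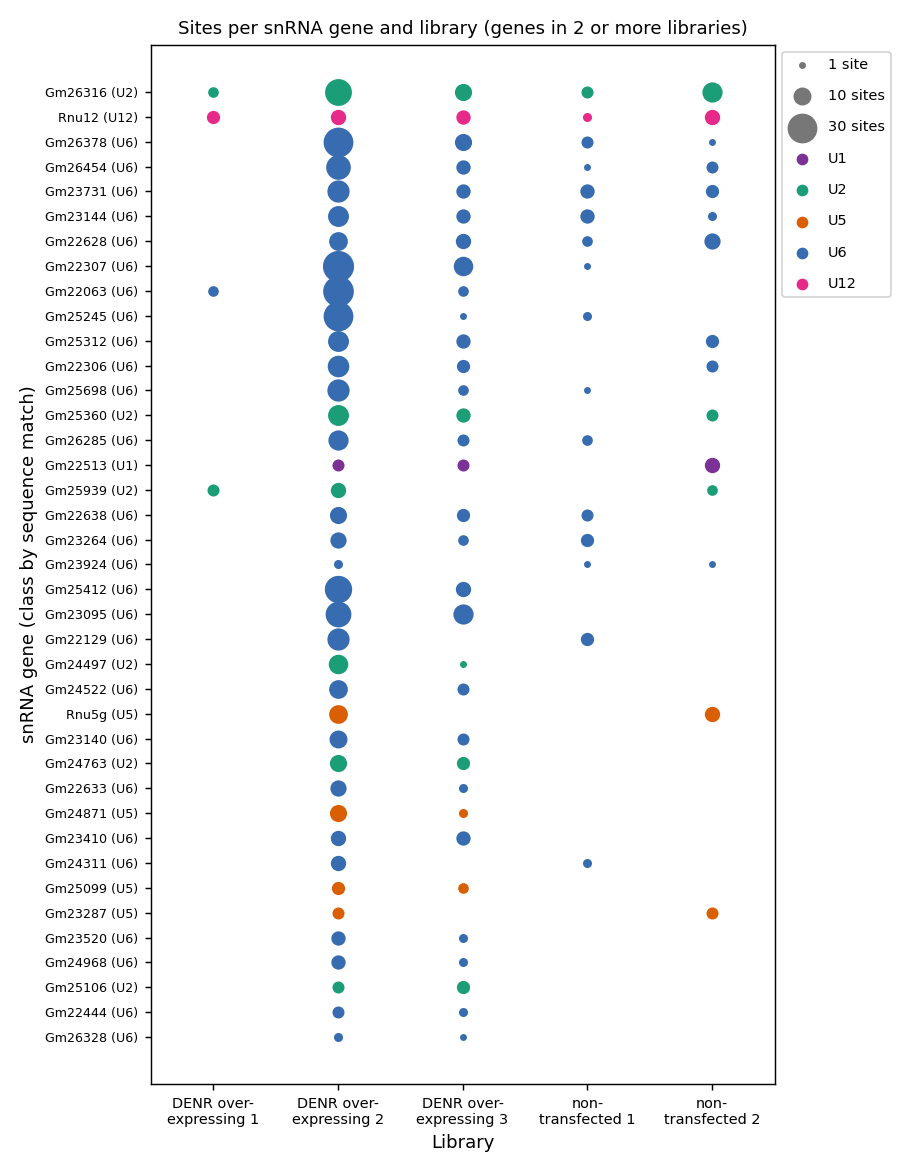
Number of listed sites, as dot area, in each of the 39 snRNA genes seen in at least 2 libraries (vertical axis, class by sequence match in colour) and each DENR library (horizontal axis). Gm26316 and Rnu12 have a dot in all 5 libraries, and every gene has one in DENR overexpressing 2.

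Fewer snRNA positions recurred than positions over all listed sites. Of 765 snRNA positions, 189 (24.7%) were listed in at least 2 DENR libraries, against 34.6% of all 23263 positions of these libraries, and 3 were listed in all 5, a share of 0.392% against 8.27%. The difference between these shares was not tested, since positions share libraries. Without DENR overexpressing 2 the recurring positions numbered 49 of 234 (20.9%), against 39.1% of all 14580 positions of the remaining DENR libraries. DENR overexpressing 2 listed 82.5% of the snRNA positions of DENR overexpressing 3, 94% of those of non-transfected 1 and 81.3% of those of non-transfected 2, while these made up 18.4%, 6.55% and 8.50% of its own. Over all listed sites the same pairs shared 59.3%, 76.6% and 71.1% of the shorter list. The non-transfected libraries shared 16 positions, 32% of the first and 21.3% of the second, where over all sites they shared 60.5% of the shorter list.

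In U5 and U12 the sites lay on a short stretch, and in U2 they were spread wider. Sites of U2 genes lay from nucleotide 1 to 122 of 191 with a median at nucleotide 92, those of U5 genes from 71 to 93 of 116, and those of U12 genes from 56 to 75 of 151. The last 69, 23 and 76 nucleotides had none. These stretches reach or cover the T run with its flanking A and G, written ATTTTTG or ATTTTTTG, which in the reference genes lies at nucleotides 99 to 105 of Rnu2-10, 88 to 95 of Rnu5g and 75 to 81 of Rnu12. The run was searched on the RNA strand only, was chosen after the values were seen, and is held by 65 of the 1383 snRNA genes (4.70%). Some U2 copies had the same 3′ limit that is described below for U6 copies. Gm26316 differs from Rnu2-10 by C170T alone and was listed from nucleotide 82 to 116. Gm25813, whose last difference is G131C, was listed from 61 to 115. The part of such differences in the empty 3′ ends and in the place of the sites was not tested.

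At U2 nucleotide 99, the A of this run, the scores summed over copies were 3, 101 and 4 in DENR overexpressing 1 to 3 and 2 and 11 in the non-transfected libraries. This was the U2 nucleotide with the highest score (121) and was listed in every DENR library. In Gm26316 alone the scores there were 3, 29, 3, 2 and 6, the highest sum (43) among positions listed in 5 libraries. Its nucleotide 102 was listed in 4 libraries with 3, 17, 6 and 1 in DENR overexpressing 1 to 3 and non-transfected 2, and nucleotide 101 in 4 with 6, 3, 1 and 1 in all but DENR overexpressing 1. Both belong to the T run. In the Gm26316 sequence above, the capitals GATTT cover nucleotides 98 to 102.

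Inside the U5 genes scores were highest in 2 places, before the run and in it. Nucleotides 82 to 87 between them were listed with low scores. The nucleotide directly before the gene, which the rule leaves out, had a higher score, 138 summed over U5 copies. Nucleotide 80 of U5 was scored 18, 5 and 6 in DENR overexpressing 2, DENR overexpressing 3 and non-transfected 2. Nucleotide 91, inside the run, was scored 27 in DENR overexpressing 2 and 3 in non-transfected 2, and nucleotide 88 was scored 25 and 1. DENR overexpressing 3 had no score at nucleotides 88 to 91 and its 5 U5 sites lay before the run.

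Rnu12 showed the closest repetition between libraries. Nucleotide 63 was scored 5, 16, 5, 5 and 3 in DENR overexpressing 1 to 3 and non-transfected 1 and 2, and nucleotide 60 was scored 2, 7, 1, 3 and 5. Nucleotide 62, between them, was listed in 4 libraries with 1, 11, 9 and 1 and was missing from non-transfected 1. These nucleotides lie 12 to 15 nt before the T run. The A at nucleotide 75 that opens the run was scored 15, 6 and 6 over U12 copies in DENR overexpressing 2, DENR overexpressing 3 and non-transfected 2.

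Counted over genes, 25.4% of U2 sites, 35.8% of U5 sites and 13.3% of U12 sites lay in the run, which takes up 3.02%, 6.90% and 4.64% of the length of the genes with a site. Weighted by score the shares were 43.6%, 56.3% and 23.1%. Over the 3 classes together, sites in the run numbered 2 of 12, 41 of 163 and 9 of 37 in the overexpressing libraries and 3 of 6 and 12 of 38 in the non-transfected ones. This gives a mean of 29.5% ± 12.6 of sites and 34.7% ± 7.24 of score (SD, n = 5), and the share of score reached at least 28.6% in each DENR library. In DENR overexpressing 1 and non-transfected 1, however, all sites in the run lay in Gm26316. Their scores there were 6 of 21 and 4 of 13, so these shares rest on few sites of a single U2 gene. The 1 U1 gene and the 53 U6 genes with a site hold neither ATTTTTG nor ATTTTTTG. This covers these written forms only and does not say that the U1 gene lacks a U-rich stretch for Sm proteins.

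**Figure D3:**
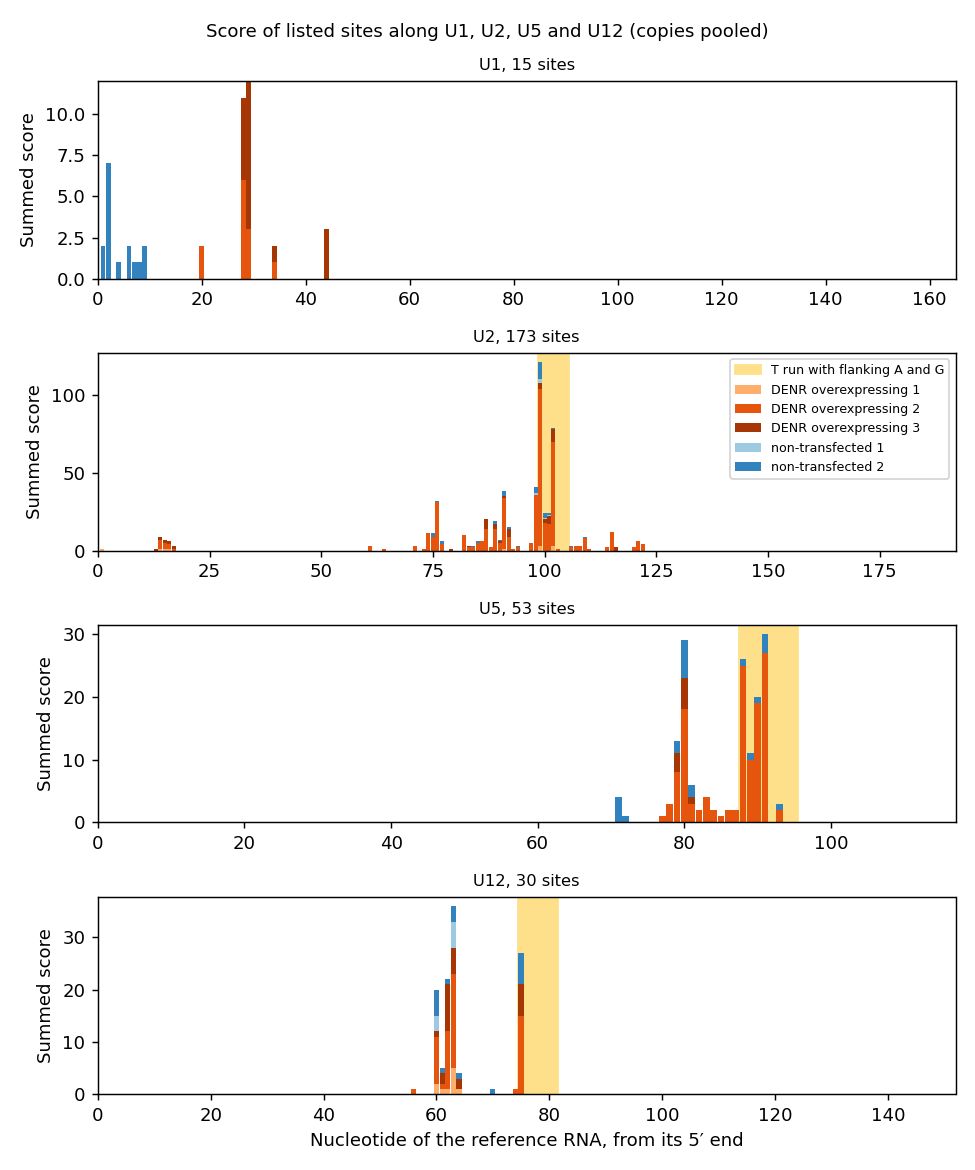
Score of listed sites summed over the copies of U1, U2, U5 and U12 (vertical axes) at each nucleotide of the reference RNA (horizontal axes), stacked by DENR library, with the T run and its flanking A and G shaded. The tallest U2 bar, 121 at nucleotide 99, is at the edge of the shaded run, and U12 bars sit mostly at nucleotides 60 to 63 ahead of it. The U1 gene does not hold the run in the written forms ATTTTTG or ATTTTTTG, so nothing is shaded there.

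U1 had sites in the single gene Gm22513, which differs from Rnu1a1 by T60C (counted from the 5′ end). All sites of Gm22513 lay 5′ of this difference. They numbered 4 and 4 in DENR overexpressing 2 and 3 and 7 in non-transfected 2. The overexpressing libraries listed nucleotides 20 to 44, led by nucleotide 28 (scores 6 and 5) and nucleotide 29 (3 and 9). Non-transfected 2 listed nucleotides 1 to 9, with its highest score of 7 at nucleotide 2. The 5′ end of U1 holds the part that pairs with the 5′ splice site, and nucleotide 2 lies at its edge. Inside the gene no U1 position was shared between non-transfected 2 and the overexpressing libraries. Over all listed sites non-transfected 2 shared 71.1% of its positions with DENR overexpressing 2 and 61.5% with DENR overexpressing 3. The lack of shared U1 positions rests on 1 non-transfected library and was not tested. It also leaves out sites within 15 nt before the first nucleotide of Gm22513. All 5 DENR libraries listed such sites, with scores of 10, 30 and 19 in DENR overexpressing 1 to 3 and 3 and 31 in the non-transfected libraries. None of the U1 genes named by symbol held a site.

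U6 sites were spread over most of the RNA. In the numbering of Rnu6 they covered 82 of 107 nucleotides, from nucleotide 1 to 90, and none lay in the last 17 nt of its copy, which hold the U tail. A read runs 3′ from its site, so a site there leaves fewer than 17 nt of the copy to map. The part of this in the absence was not tested. The segments 1 to 25, 26 to 50, 51 to 75 and 76 to 107 held 181, 278, 218 and 70 sites (24.2%, 37.2%, 29.2% and 9.37%). Summed over copies, the highest scores inside the genes were 274 at nucleotide 52, 251 at nucleotide 40 and 192 at nucleotide 62. The nucleotide directly before the gene, which the rule leaves out, had a higher score, 351 summed over U6 copies. Nucleotide 52 lies 5 nt past the ACAGAGA box, which takes up nucleotides 41 to 47 of Rnu6, and was listed in 13 copies, with scores of 199, 45, 10 and 20 in DENR overexpressing 2, DENR overexpressing 3, non-transfected 1 and non-transfected 2. Nucleotide 40, just before the box, was scored 192 and 59 in DENR overexpressing 2 and 3 and was not listed in the others. The box is held by 583 of the 1383 genes (42.2%), by 556 of the 872 U6 genes (63.8%) and by 45 of the 53 U6 copies with a site.

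Several U6 copies shared the site at nucleotide 52. In Gm22307 it had the highest snRNA score of all, 52 in DENR overexpressing 2 and 14 in DENR overexpressing 3. In Gm23731 it was scored 30, 9, 4 and 5 in the same libraries followed by non-transfected 1 and 2, in Gm26378 15, 7, 2 and 4, and in Gm23144 12, 1, 2 and 3. Gm22628 had its most widely listed position elsewhere, at nucleotide 21, with 38, 3, 4 and 5.

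The sites of a U6 copy lay 5′ of its own sequence difference from Rnu6, a comparison chosen after the values were seen. Of the U6 copies with a site, 13 differ from Rnu6 by 1 substitution and no gap. In these 13 copies all 255 distinct positions lay 5′ of the substitution, 0 on it and 0 beyond it, although the part 5′ of it makes up 55.9% of their length. Gm22628, which differs by C25T, was listed from nucleotide 4 to 24. Gm22306 (T32G) was listed from 9 to 31, Gm22307 (G54T) from 12 to 53 and Gm23144 (C63T) from 38 to 62. Of the 9 copies with positions listed in at least 2 libraries, these ended within 10 nt of the substitution in Gm22628, Gm22306, Gm23144, Gm22129, Gm22307, Gm25412 and Gm25312, but 32 nt before it in Gm25245 and 73 nt before it in Gm22063. The distance from position to substitution had a median of 23 nt and ranged from 1 to 83 nt, the last in Gm22063 (C98A).

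**Figure D4:**
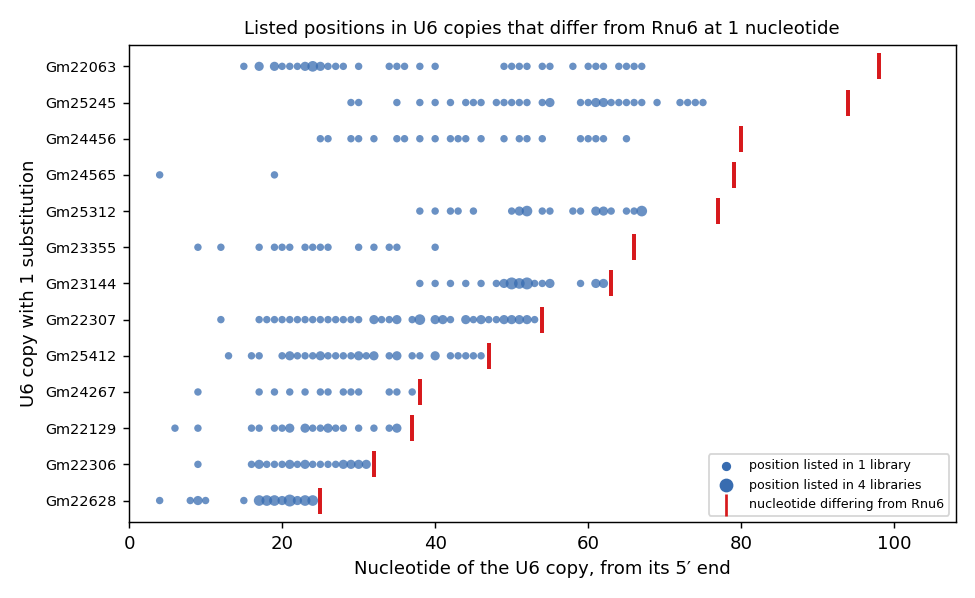
Listed positions (dots, larger where more libraries listed them) along the 13 U6 copies that differ from Rnu6 at 1 nucleotide, ordered by the place of that nucleotide (vertical mark), with the nucleotide of the copy on the horizontal axis. All 255 dots lie to the left of, that is 5′ of, the mark of their copy.

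Copies with more differences showed the same limit on the 3′ side. In the 31 ungapped U6 copies with at least 2 substitutions, 0 of 278 positions lay on or past the last one, although 27.8% of their nucleotides do. A differing nucleotide within the next 30 nt on the 3′ side was found for 68.7% of these positions, against 54.1% of all nucleotides of the copies. On the 5′ side the values were 80.9% and 60.9%, so that differences were near on both sides. By library, over all 44 ungapped copies with a substitution (the 13 above included), the 3′ share of sites was 64.2%, 78.8%, 78.0% and 82.8% in DENR overexpressing 2, DENR overexpressing 3, non-transfected 1 and non-transfected 2, and the 3 U6 sites of DENR overexpressing 1 had none. An iCLIP read begins 1 nt past its site and runs in the 3′ direction. How reads that fit several copies were handled is not given in the sources used here, and the part of this in the results was not tested. The profile of U6 joined over copies is therefore given as a description of the lists.

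Copies that cannot be told apart by sequence also had sites. The annotation holds 43 genes with the exact sequence of Rnu6, and 2 of these (4.65%, against 6.08% of all U6 genes) had sites, Gm25737 with 3 and Gm24693 with 2, all in DENR overexpressing 2. Over all snRNA positions, the stretch from the nucleotide after the site had to run a median of 32 nt before no other annotated snRNA gene held it. At 19 positions (2.48%) it was the same in another gene to its 3′ end, and all 19 were listed in DENR overexpressing 2 only. Of the 691 positions with 30 nt left in the gene, 40.7% had a 30-nt stretch found in 1 snRNA gene only. By class this was 100% for U5, 40.9% for U6, 34.7% for U2, 8.33% for U1 and 0% for U12, whose 2 genes share the stretch. The copy to which a site belongs is thus uncertain where copies share the stretch. Whether the class totals are affected as well was not tested, and matches elsewhere in the genome were not analysed here.

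T was the most frequent base at snRNA sites. It made up 32.3% of sites against 27.3% of the nucleotides of the genes with a site. By library T made up 40%, 29.2% and 40.6% of sites in DENR overexpressing 1 to 3 and 36% and 40% in the non-transfected libraries, with a mean of 37.2% ± 4.80 (SD, n = 5). By class T was 56.6% against 36.8% in U5, 48.0% against 31.9% in U2, 33.3% against 25.5% in U12 and 27.2% against 24.8% in U6, and in U1 it was lower, 20% against 24.4%. UV light joins protein to uridine more readily than to other bases, and the part of this in the shares was not tested.

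The place along the gene was compared by dividing each gene in its middle. The share of sites in the 5′ one of 2 equal parts of their gene was 86.7%, 62.5% and 70% in the overexpressing libraries against 54% and 64% in the non-transfected ones. This share differed by class, with 0% of U5 sites against 68.1% of U6 sites, and after sites within 15 nt were merged it was 43.8% in non-transfected 1. The groups overlapped, with means of 73.1% ± 12.4 (SD, n = 3) and 59% ± 7.07 (SD, n = 2), and the difference of 14.1 percentage points had p = 0.4 in a two-sided exact permutation test (adjusted p = 0.8).

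Sites that just missed the 5′ end of the annotated genes formed a further group. Within 15 nt before the first nucleotide there were 9, 89 and 33 sites in the overexpressing libraries, 21 and 36 in the non-transfected ones and 0 in both IgG libraries, and 0 lay within 15 nt past the 3′ end in any library. Of these 188 sites, 93 lay on the nucleotide directly before the gene, 39 a nucleotide further out and the rest up to 7 nt farther than the first. A read that starts on the first nucleotide of an snRNA has its site at that place. The sites before the gene were less concentrated in DENR overexpressing 2 than those inside, and the ratio to sites inside ran from 9 against 15 in DENR overexpressing 1 to 89 against 718 in DENR overexpressing 2.

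U6 copies had 114 of the sites before the gene, U5 33, U1 22, U2 13 and U12 6. The U1 genes, with 15 sites inside, thus had more before the first nucleotide than after it. Gm25794 (U6) had 1, 7, 1, 2 and 2 such sites in the 5 DENR libraries, with scores of 2, 37, 23, 6 and 4, and none inside. Gm25099 (U5) was scored 3, 75, 18, 5 and 26, Gm22513 (U1) 10, 30, 19, 3 and 31, and Gm22307 (U6) 3, 17, 21, 6 and 5, so that these 4 genes were listed in every DENR library when their 5′ edge was counted.

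**Figure D5:**
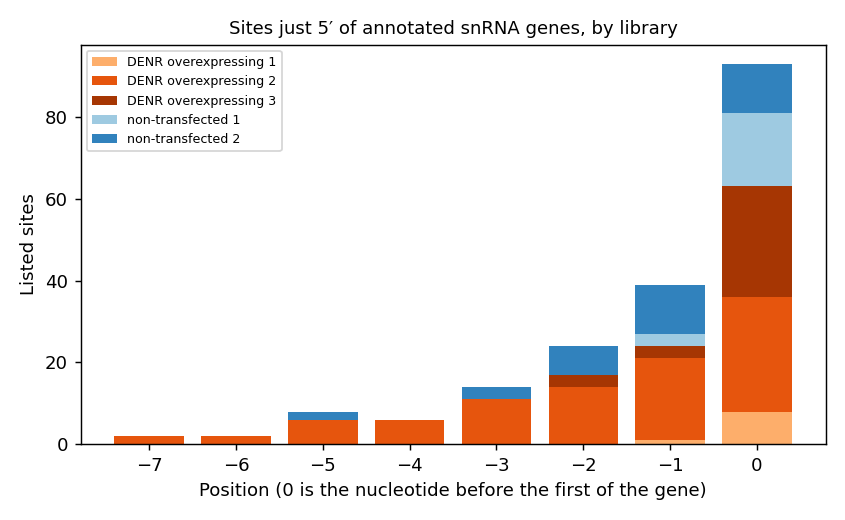
Number of listed sites (vertical axis, stacked by DENR library) at each place up to 7 nt further out than the nucleotide directly before an snRNA gene, which is place 0 on the horizontal axis. The bar at place 0 holds 93 of 188 sites and has a part from each of the 5 DENR libraries.

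The mRNAs that encode the proteins of these particles held few sites each. Of 54 genes for Sm, LSm and other snRNP proteins, 10 (18.5%) had a site in an exon on their strand, with 18 sites in all, and over all protein-coding genes 7.91% had one. Snrpb, which encodes an Sm protein, had 2 sites in DENR overexpressing 2 and 2 in non-transfected 2. Lsm7, for an LSm protein of the U6 particle, had 3 sites in non-transfected 1 alone, and Lsm8 had 2 in DENR overexpressing 2. Sf3a1, of the U2 particle, had 2 in DENR overexpressing 3 and Snrnp200, the U5 helicase, had 2 in DENR overexpressing 1. Snrnp70, Snrpe, Sf3b1, Eftud2 and Sart1 had 1 each, and Snrpb was the only gene of the list seen in 2 libraries.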

How the data were processed

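iCLIP libraries of 7 samples were grouped by their titles. The authors mapped reads to mouse build mm10 with Bowtie, allowing 2 mismatches, removed reads sharing a molecular identifier and start, and called sites per library with iCount at a false discovery rate of 0.05. The submitters' processing notes name Bowtie2. The deposited value is a score, the signed height of a site, and is not scaled to library size. Sites that missed the threshold are absent from the lists, which leaves the depth unknown, and intervals and floors (3 counts) cover counting error only. Per the file headers, regions were kept apart during calling in 6 lists, the methods name the opposite option, and DENR overexpressing 2 has no such header.

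Sites were assigned by strand to GENCODE M21 snRNA genes with Python 3.11.15, numpy 2.4.6, pandas 2.3.3, scipy 1.17.1 and Biopython 1.88. Classes came from symbols and from the best blastn 2.17.0 match (e-value 1e-05). Copies were aligned end to end with Rnu1a1, Rnu2-10, Rnu5g, Rnu6 or Rnu12, and nucleotides were counted from 1 at the 5′ end. Sequences of U5 and U6 genes are not reported here. Exact Clopper-Pearson intervals (95%), two-sided exact permutation tests over libraries, and Benjamini-Hochberg adjustment over 4 tests were used. A planned comparison of sense with antisense sites was dropped, since the rule uses strand. The labels do not say whether replicates were separate cultures, so p-values measure the spread between these libraries. Assignment was tested on simulated data (100% of 500 sites recovered). Named genes were the first 30 by number of libraries, then of positions, among genes listed in at least 2 libraries, snRNAs named by symbol with a site, and the 10 positions listed in most libraries. The members, the 54 snRNP genes and the tests were chosen with earlier results of these data known.

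Alternatives were weighting by score, a minimum score of 10, merging within 15 nt, gene ends extended by 5 nt, removal of snRNA genes in exons of other genes, and removal of rRNA loci, mitochondrial sites and dense 2000-nt windows (10 or more sites in every DENR library). Lists of equal length (4012), class by sequence, matching within 5 nt, leaving out each library and the replicate block were also tried.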

Additional observations from a re-analysis of the deposited data

Results flagged for a closer look

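Sites just outside the annotated genes were not part of the comparisons above. In 23 snRNA genes, sites lay within 15 nt before the first nucleotide and none lay inside, with 80 sites and a summed score of 393 over the DENR libraries and 0 such sites in either IgG library. Of these genes 17 matched U6, 5 matched U1 and 1 matched U2. The IgG lists hold 19 and 234 sites, so a low level in them would not be detectable.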

How the results depend on the processing

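Of 56 alternatives, 49 kept the direction and the side of the threshold, or for the count of positions stayed within 1.5 times. The share in DENR libraries against IgG (1.72 percentage points) kept its direction under every alternative tried, which with 0 sites in both IgG libraries no alternative could change. It was 1.04 to 2.05 when single libraries were left out, 0.643 weighted by score, 0.622 at a score of at least 10, and 4.12 without rRNA loci, mitochondrial sites and dense windows. The difference between overexpressing and non-transfected libraries (1.03) reversed to -0.253 when sites within 15 nt were merged and to -0.130 without DENR overexpressing 2, and ranged up to 1.91 over the libraries left out. The difference in the Rnu5g share (-4.16) reversed to 0.511 without non-transfected 2 and otherwise reached -8.82, and with class by sequence match that for U6, the class with the most positions, was -6.96. The difference in the share of sites in the 5′ part of the gene was 7.27 to 19.3 when single libraries were left out and 6.26 with gene ends extended by 5 nt. The cause was not tested. The 189 recurring positions became 424 when positions within 5 nt counted as shared, 3 at a score of at least 10, 49 without DENR overexpressing 2, 96 without DENR overexpressing 3, and up to 187 without another library. With the replicate block the differences were 1.76 (DENR against IgG), 1.31, -3.90 and 15.6, and 2 pairs allow no p under 0.5. Same-numbered libraries did not deviate together over 72 genes (r = -0.314 and -0.342), and the numbers were treated as names, not as pairs. At a score of at least 10 no non-transfected snRNA site remained, and the class and 5′ shares were not run. No test could pass 0.05 at these library numbers, so an unchanged side of the threshold says nothing about stability. Per-copy values depend on how reads fitting several copies were handled, which is not given in the sources used here.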
